A study of Homo sapiens with 4 samples.

Results

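The centrosomal protein (CEP) genes and the kinase and scaffold genes that build new centrioles were followed in NCC-IT-A3, a human embryonal carcinoma cell line, which derives from a germ cell tumour and resembles cells of the early embryo. The members are all protein-coding genes whose current symbol is CEP followed by digits and at most 1 letter, together with PLK4, STIL and SASS6. The rule gave 40 genes of the 27685 gene IDs in the deposited tables, and it used no measured value. The treated cells received 100 nM barasertib, which inhibits the mitotic kinase Aurora B, over 4 days, and the control cells the solvent DMSO. Both groups were grown in RPMI medium with serum, and each is represented by 2 libraries of polyadenylated RNA. A single cell line was used, and the labels do not say whether 2 libraries of a group stem from 2 cultures. The p-values therefore reflect only how far these libraries lie apart, which may be technical.

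The centrosome is the main microtubule organising centre of animal cells and consists of a pair of centrioles in a protein matrix, the pericentriolar material. Centrioles are copied once per cell cycle: the kinase PLK4 is placed on the parent centriole by scaffold proteins, phosphorylates STIL, and STIL brings SASS6, which forms the hub of the new centriole. Other CEP proteins lengthen the centriole, cap its end, form the appendages through which a centriole becomes the base of a cilium, link the centriole pairs, or, in the case of CEP55, work at the midbody when daughter cells separate. Aurora B is needed for normal cell division, and cells in which it is blocked commonly fail to divide.

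Values are TPM (transcript abundance scaled for transcript length and library total), so levels can be compared between genes. The aligned bases estimated from the deposited columns came to 4.59 and 4.52 Gb with barasertib and to 4.22 and 4.43 Gb with DMSO. A log2 change is the mean of log2(TPM + 1) with barasertib minus that with DMSO, which understates the change of low genes, and a gene is called at a limma adjusted p under 0.05 over the 13938 tested genes, with n = 2 libraries per group. All 40 members passed the filter of a mean of at least 1 TPM. Over all tested genes the median log2 change was 0.11 in TPM and moved by -0.11 with median-of-ratios scaling and by -0.12 with quantile normalisation, so members are also given relative to that median or under those scalings. Of 9 embryonal carcinoma markers, summing to 6500 and 6127 TPM with barasertib and 5541 and 5436 TPM with DMSO, 5 rose and 1 fell. These are 55.6% and 11.1%, against 22.0% and 7.44% of all tested genes. In TPM and under both other scalings 2 rose and 1 fell, where 10.7% and 7.05% of all tested genes did. NANOG (246 and 258, against 168 and 159 TPM), DNMT3B (459 and 433, against 254 and 228 TPM) and DPPA4 (277 and 293, against 90.4 and 188 TPM) were higher with barasertib. POU5F1 was the most abundant (4000 and 3950 TPM with barasertib, 3710 and 3520 TPM with DMSO), SOX2 was lower with barasertib (381 and 398, against 456 and 446 TPM), and TNFRSF8, the surface marker CD30, was low in all libraries (3.42 and 3, against 3.77 and 3 TPM). PODXL differed between the treated libraries (506 and 167, against 320 and 326 TPM). The summed level of 6 markers of multiciliated cells, a cell type that makes many centrioles, was 1.69 and 1.79 TPM with barasertib and 1.61 and 0.501 TPM with DMSO. Summed markers of fibroblasts (3.59 and 3.21 TPM with barasertib, 1.68 and 2.30 TPM with DMSO), of yolk sac and endoderm (1.69 and 1.25, against 0.538 and 0.792 TPM), of trophoblast (102 and 98.4, against 89.4 and 95 TPM) and of neural cells (102 and 90.9, against 76.4 and 74.6 TPM) were higher with barasertib, and their part in the results was not tested. The neural sum was nearly all TUBB3 (101 and 90.6, against 76.2 and 74.4 TPM), with PAX6, SOX1 and NEUROD1 near 0. The trophoblast sum was mostly HAND1 (mean 38.4, against 38.2 TPM) and TFAP2C (mean 59.0, against 52.6 TPM). TPM is relative to the library total, and in bulk RNA fewer cells that express a gene and less RNA per cell cannot be told apart.

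As a family, the members changed about as often as other genes did. Of the 40 members 8 rose and 3 fell with barasertib, or 20.0% and 7.5%, where 22.0% of all tested genes rose and 7.44% fell. The members that rose included CEP55, CEP15, STIL, CEP170B, CEP170, CEP131 and PLK4, and those that fell were CEP78, CEP57 and CEP70. The other 29 were not called, and 14 members (35.0%) had an unadjusted limma p under 0.05, against 43.1% of all tested genes. Under all 3 scalings 5 members (12.5%) rose and 3 (7.5%) fell, against 10.7% and 7.05% of all tested genes. CEP55, CEP15 and STIL alone among the members combined a call with a log2 change of at least 0.5 upward, which is 7.5% of members against 9.17% of tested genes, and no member fell that far, against 2.33% of tested genes. The median log2 change of the members was 0.05 in TPM, or -0.06 relative to all tested genes, and its sign turned to -0.06 with median-of-ratios scaling and -0.07 with quantile normalisation.

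**Figure D1:**
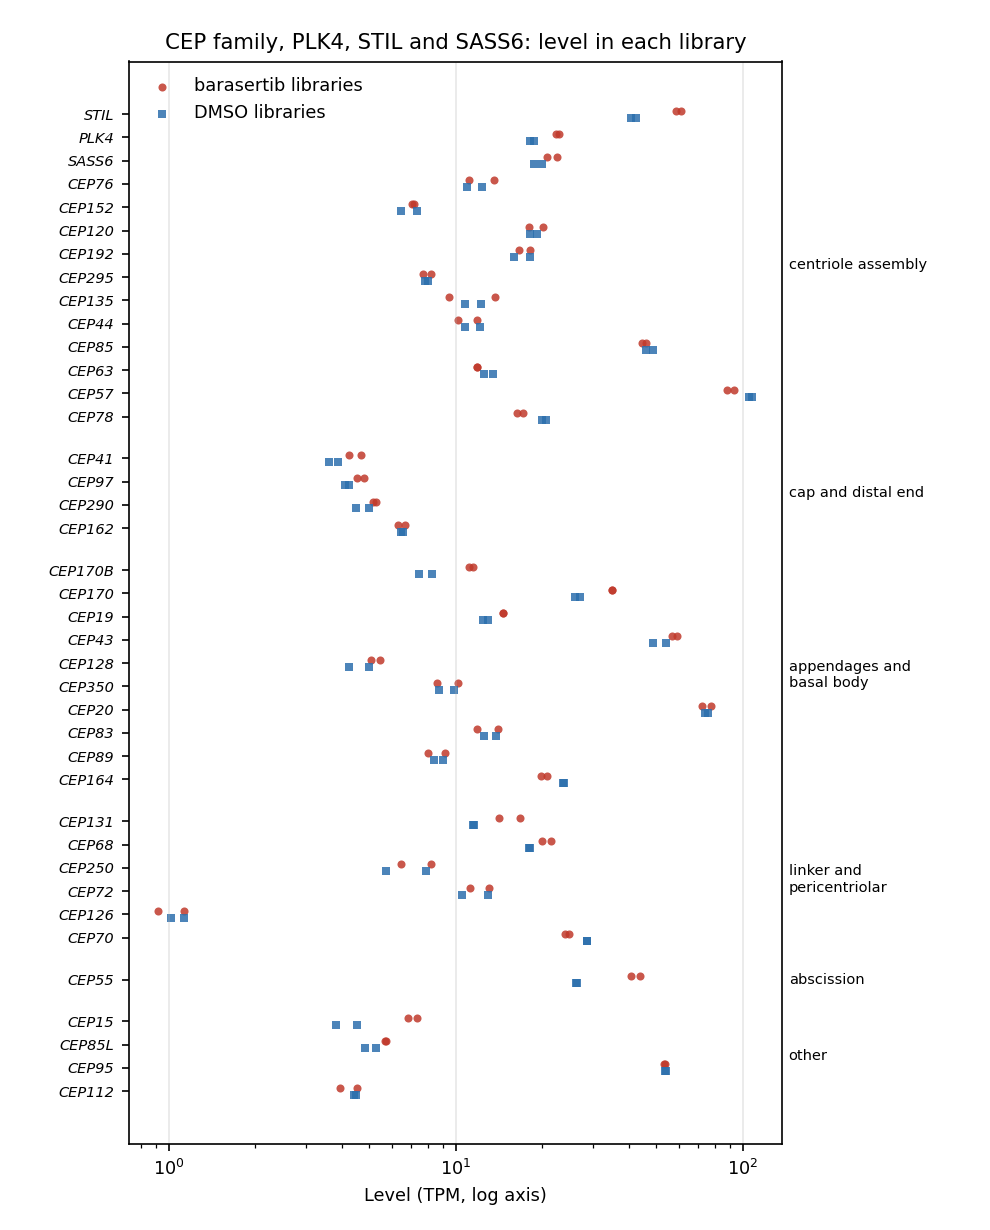
Level of 39 members in every library in TPM on a log axis (red circles, barasertib libraries, and blue squares, DMSO libraries; 2 libraries per group), grouped by role and ordered by change. The red points of STIL, CEP55, CEP170, CEP170B and CEP15 lie right of the blue ones, those of CEP57, CEP78 and CEP70 lie left of them, and CEP57 is the most abundant member in both groups.

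Levels among the members spanned about 2 orders of magnitude. CEP57 was the most abundant in both groups and CEP126 the least, at 0.92 and 1.13 TPM with barasertib and 1.02 and 1.13 TPM with DMSO. The median member stood at 12.7 TPM with barasertib and 12.2 TPM with DMSO. Summed over the 40 genes, the level was 827 and 855 TPM with barasertib and 786 and 799 TPM with DMSO, a ratio of 1.06. The groups did not overlap in this sum, but the exact two-sided permutation test over the 4 libraries gave p = 0.333, the smallest that 2 against 2 allows, and the difference of 48.6 TPM turned to -18.3 with median-of-ratios scaling and -14.7 with quantile normalisation. Within the sum the shares moved: STIL made up 7.12% of it with barasertib and 5.27% with DMSO, CEP55 5.02% and 3.33%, and CEP57 10.8% and 13.5%. By mean level STIL ranked 3 with barasertib and 6 with DMSO, and CEP15 ranked 32 and 38.

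CEP55 had the largest log2 change of the members in log2(TPM + 1), although the ratio of means was higher for CEP15. The CEP55 protein sits at the centrosome and then moves to the midbody, where it recruits the ESCRT machinery that cuts the bridge between daughter cells. CEP55 was at 40.8 and 43.7 TPM in the barasertib libraries and 26.3 and 26.4 TPM in the DMSO libraries. Both treated libraries lay well above both controls, which were nearly equal. The ratio of means was 1.60 and the log2 change 0.66 ± 0.067 (SE, n = 2 per group, limma adjusted p = 0.0018), which 6.4% of all tested genes reached or passed. CEP55 (gene ID 55165) spans chromosome 10 from 95256369 to 95288849 on the plus strand in the hg19 coordinates of the files. The call held in all 13 alternative settings, with limma adjusted p from 0.0012 to 0.0185.

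Of the 3 genes at the heart of centriole duplication, STIL and PLK4 were called in TPM and SASS6 was not. STIL, the protein that joins PLK4 to SASS6 and sets the start of a new centriole, was at 58.6 and 61.1 TPM with barasertib and 40.9 and 42.6 TPM with DMSO. The STIL groups were far apart for their spread, and the log2 change was 0.51 ± 0.060 (limma adjusted p = 0.00283), held in all 13 alternatives. STIL (gene ID 6491) lies on the minus strand of chromosome 1 from 47715811 to 47779819 (hg19). PLK4, the kinase whose level limits centriole number, was at 22.9 and 22.4 TPM with barasertib and 18.2 and 18.7 TPM with DMSO, without overlap. PLK4 rose by 0.28 ± 0.069 on the log2 scale (limma adjusted p = 0.0289), but its change was 0.17 with median-of-ratios scaling (adjusted p = 0.128) and 0.18 with quantile normalisation (adjusted p = 0.108). Whichever library was left out, PLK4 was no longer called (limma adjusted p of 0.079 to 0.118). SASS6, the cartwheel hub protein, was at 20.8 and 22.5 TPM with barasertib and 19.9 and 18.8 TPM with DMSO, close together but not overlapping. Its log2 change of 0.15 had a 95% interval of -0.04 to 0.35 (limma adjusted p = 0.182). Whether STIL, PLK4 and SASS6 differ in their changes was not tested.

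The promoters of CEP55 and STIL, the members with the smallest adjusted p, are printed with that of CEP70, a member that fell, because genes expressed late in the cell cycle often carry short motifs there. Each line gives the 250 bases before the annotated start, 5′ to 3′ on the gene's strand, from RefSeq in build GRCh38.p14, at chr10:93496362-93496611 (plus strand), chr1:47314148-47314397 (minus strand) and chr3:138594261-138594510 (minus strand). Capitals mark exact matches on either strand to the cell cycle homology region (CHR; TTTGAA and its variant TTCGAA), to an E2F word (TTCCCGC and its variants with the letters TTGGCGC and with the letters TTCGCGC) and to CCAAT.
CEP55: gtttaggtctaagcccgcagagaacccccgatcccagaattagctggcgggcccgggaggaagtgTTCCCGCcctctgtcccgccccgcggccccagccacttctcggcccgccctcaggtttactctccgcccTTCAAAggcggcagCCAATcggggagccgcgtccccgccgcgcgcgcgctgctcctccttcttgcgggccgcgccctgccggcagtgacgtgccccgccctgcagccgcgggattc
STIL: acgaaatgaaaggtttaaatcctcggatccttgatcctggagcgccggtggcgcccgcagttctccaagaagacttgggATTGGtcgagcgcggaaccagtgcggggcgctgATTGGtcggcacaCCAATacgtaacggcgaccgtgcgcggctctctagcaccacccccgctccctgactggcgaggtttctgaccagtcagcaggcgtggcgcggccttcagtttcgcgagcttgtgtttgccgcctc
CEP70: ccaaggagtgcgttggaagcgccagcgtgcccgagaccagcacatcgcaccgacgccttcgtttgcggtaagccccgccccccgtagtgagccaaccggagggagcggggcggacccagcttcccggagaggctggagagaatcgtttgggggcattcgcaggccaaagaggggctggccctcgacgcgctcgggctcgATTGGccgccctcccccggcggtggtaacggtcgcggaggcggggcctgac
CEP55 held 1 CHR match, 1 E2F match and 1 CCAAT match, STIL held 3 CCAAT matches, and CEP70 held 1 CCAAT match. CEP57, not printed, fell with a smaller adjusted p than CEP70 (limma adjusted p of 0.0241 and 0.0481). A window of CEP57 held 1 CHR match, 1 E2F match and 2 CCAAT matches, and its other window 1 CCAAT match. Promoters were on hand for 35 of the 40 members, in 46 start windows. A CHR match was present in 9 windows (19.6%), an E2F match in 15 (32.6%) and CCAAT in 22 (47.8%), against 12.1%, 11.8% and 32.7% of 22199 windows of protein-coding genes. Of the 7 windows of members that rose 1 held a CHR match and 3 an E2F match, against 7 and 11 of the 36 windows of members not called, and 1 and 1 of the 3 windows of members that fell. Some genes have several windows, among them PLK4, which rose, and CEP57, which fell. Members without a window included CEP15 and CEP170B, which rose, and CEP78, which fell. None of the matches of different motifs overlapped, and a match describes letters only.

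**Figure D2:**
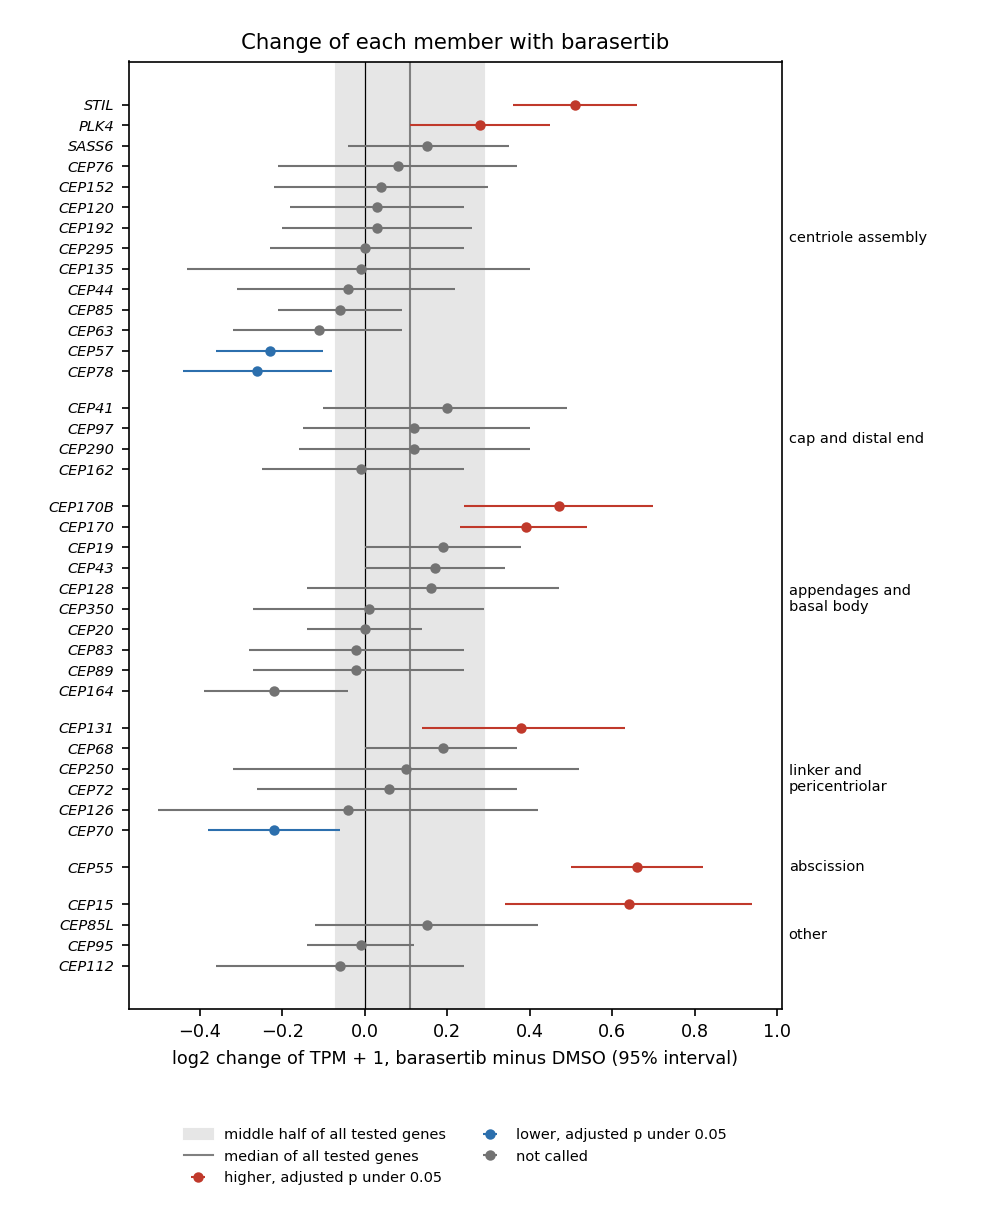
log2 change of TPM + 1, barasertib minus DMSO, for 39 members with their 95% intervals from limma, by role (red, higher; blue, lower; grey, not called). The vertical grey line and band give the median, 0.11, and the interquartile range, -0.07 to 0.29, of all tested genes, and 29 of the 39 members are drawn in grey.

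Among the scaffolds and lengthening factors of centriole assembly, 2 genes fell and no further gene rose. CEP57, a partner of CEP63 and CEP152 on the centriole wall that also holds pericentriolar material, was at 88.1 and 93.4 TPM with barasertib and 105 and 108 TPM with DMSO. The highest treated library was below the lowest control, a fall by 0.23 ± 0.054 on the log2 scale (limma adjusted p = 0.0241). Its change was -0.35 and -0.33 under the other scalings, both called, and CEP57 was no longer called when barasertib replicate 1 (limma adjusted p = 0.0918) or either DMSO library (0.063 and 0.0981) was left out. CEP57L1, a CEP57 paralogue outside the member rule, was at 7.88 and 8.54 TPM with barasertib and 6.71 and 6.38 TPM with DMSO, and was not called (log2 change 0.29, limma adjusted p = 0.0763). CEP78, a centriole end protein known from a retinal and hearing disorder, was at 17.2 and 16.4 TPM with barasertib and 20.0 and 20.6 TPM with DMSO. CEP78 fell by 0.26 ± 0.074 on the log2 scale (limma adjusted p = 0.0442), and was not called whichever library was left out (adjusted p of 0.0862 to 0.167).

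The scaffolds that bring PLK4 to the centriole were at close levels in the groups. CEP192 was at 16.6 and 18.2 TPM with barasertib and 15.9 and 18.2 TPM with DMSO, and CEP152 at 7.14 and 7.03 TPM with barasertib and 7.33 and 6.43 TPM with DMSO. Both pairs of groups overlapped, with 95% intervals of the log2 change of -0.20 to 0.26 for CEP192 and -0.22 to 0.30 for CEP152. CEP63, the partner of CEP152, was at 11.9 and 11.9 TPM with barasertib and 13.5 and 12.5 TPM with DMSO, lower without overlap but not called (log2 change -0.11, limma adjusted p = 0.347). CEP85, which binds STIL, was at 46.0 and 44.4 TPM with barasertib and 45.9 and 48.6 TPM with DMSO. The groups of CEP85 overlapped, and its interval ran from -0.21 to 0.09.

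Members that lengthen or mature the new centriole overlapped between the groups. CEP120, a factor of centriole elongation, was at 18.0 and 20.2 TPM with barasertib and 18.2 and 19.2 TPM with DMSO. CEP295, needed to turn a new centriole into a centrosome, was at 7.68 and 8.22 TPM with barasertib and 7.81 and 8.03 TPM with DMSO. CEP44, which acts in the same conversion, was at 10.2 and 11.9 TPM with barasertib and 10.8 and 12.1 TPM with DMSO. Their log2 changes lay between -0.04 and 0.03. CEP135, which ties the cartwheel to the microtubule wall, was at 9.45 and 13.7 TPM with barasertib and 10.8 and 12.2 TPM with DMSO, so its treated libraries differed from each other by 0.49 on the log2 scale and from the controls by -0.01. CEP76, which restrains repeated duplication, was at 11.1 and 13.6 TPM with barasertib and 10.9 and 12.3 TPM with DMSO. CEP76 shares 40822 bases of its locus with PSMG2, a proteasome assembly gene on the opposite strand that fell by 0.19 on the log2 scale. CEP68, CEP83 and CEP295 also overlap the ends of opposite-strand genes that fell (RAB1A, PLXNC1 and TAF1D). CEP63, CEP44, CEP95 and CEP290 overlap opposite-strand genes that were not called. These are ANAPC13, FBXO8, DDX5 and RLIG1, with log2 changes of 0.05, 0.02, 0.12 and 0.32. The sources used here do not state whether the gene levels took strand into account, so reads in these overlaps may be assigned to either gene. Over all 14 assembly genes 2 (14.3%) rose and 2 (14.3%) fell, against 22.0% and 7.44% of all tested genes. Their median log2 change was 0.02, against 0.11 for all tested genes.

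Subdistal appendages anchor microtubules to the mother centriole, and their protein CEP170 and its paralogue CEP170B both rose. CEP170 was at 35.1 and 35.0 TPM with barasertib and 27.0 and 26.1 TPM with DMSO. The replicates of each group nearly coincided, and the log2 change was 0.39 ± 0.063 (limma adjusted p = 0.00793), called in all 13 alternatives. CEP170B was at 11.5 and 11.1 TPM with barasertib and 8.24 and 7.47 TPM with DMSO, a log2 change of 0.47 ± 0.094 (limma adjusted p = 0.0149). The CEP170B groups did not overlap, and its call held under all 3 scalings but ended when either barasertib library (limma adjusted p of 0.0752 and 0.0586) or DMSO replicate 2 (0.0606) was left out. CEP170 (gene ID 9859) spans chromosome 1 from 243287730 to 243418708 on the minus strand, and CEP170B (gene ID 283638) chromosome 14 from 105331650 to 105363107 on the plus strand (hg19).

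CEP170 also has a pseudogene copy, CEP170P1, on chromosome 4 from 119437495 to 119475359 (hg19), and reads of near-identical copies can be split between them. CEP170P1, looked at after its values were seen, was at 6.29 and 5.92 TPM with barasertib and was listed at 0 in both DMSO libraries. Summed, CEP170 and CEP170P1 came to 41.4 and 41.0 TPM with barasertib and 27.0 and 26.1 TPM with DMSO, a ratio of 1.55 against 1.32 for CEP170 alone. The split of reads between the 2 loci was not tested, so the size of the CEP170 change is uncertain while its direction is the same with and without the copy.

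The distal appendage genes, whose proteins dock the mother centriole at the membrane, gave no call in TPM. CEP164, the appendage protein that recruits the kinase TTBK2, was at 20.8 and 19.8 TPM with barasertib and 23.7 and 23.8 TPM with DMSO. Both treated libraries were below both controls, with a log2 change of -0.22 ± 0.070 (limma adjusted p = 0.0635). CEP164 passed with median-of-ratios scaling (-0.33, adjusted p = 0.0214) and with quantile normalisation (-0.31, adjusted p = 0.0252). CEP83, at the root of these appendages, was at 14.0 and 11.9 TPM with barasertib and 13.8 and 12.5 TPM with DMSO, and CEP89, further out, at 8.00 and 9.19 TPM with barasertib and 8.39 and 8.99 TPM with DMSO. Both overlapped, with intervals of -0.28 to 0.24 and -0.27 to 0.24.

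Other members of the basal body stayed within an uncalled range. CEP128, which anchors part of the subdistal appendage, was at 5.07 and 5.45 TPM with barasertib and 4.23 and 4.97 TPM with DMSO, a log2 change of 0.16 that was -0.01 after quantile normalisation. CEP43 (FOP), CEP350 and CEP19 form a chain that brings intraflagellar transport to the mother centriole. CEP43 was at 56.8 and 58.8 TPM with barasertib and 48.5 and 54.1 TPM with DMSO (log2 change 0.17, limma adjusted p = 0.121), and CEP19 at 14.6 and 14.6 TPM with barasertib and 12.4 and 12.9 TPM with DMSO (0.19, limma adjusted p = 0.114). Both were higher in each treated library than in each control without a call. CEP350 was at 8.61 and 10.2 TPM with barasertib and 9.83 and 8.72 TPM with DMSO. CEP20, a relative of CEP43 that ranked 2 in level in both groups, was at 72.3 and 77.3 TPM with barasertib and 75.4 and 74.0 TPM with DMSO. The last 2 overlapped, and the CEP20 interval of -0.14 to 0.14 was among the narrowest of the members.

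Of the genes of the centriole cap and distal end, CEP97, CEP290, CEP41 and CEP162 were not called. CEP97, which caps the centriole together with CCP110, was at 4.54 and 4.78 TPM with barasertib and 4.12 and 4.26 TPM with DMSO. CEP290, a protein of the ciliary transition zone, was at 5.27 and 5.14 TPM with barasertib and 4.97 and 4.48 TPM with DMSO. CEP41, which acts in the glutamylation of ciliary tubulin, was at 4.24 and 4.67 TPM with barasertib and 3.89 and 3.63 TPM with DMSO. These 3 low genes were a little higher in every treated library, with log2 changes of 0.12 to 0.20 and none called, and CEP97 and CEP290 turned to -0.06 after quantile normalisation. CEP162, which helps to assemble the transition zone, was at 6.30 and 6.64 TPM with barasertib and 6.44 and 6.56 TPM with DMSO, with full overlap.

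Genes of the linker, the satellites and the pericentriolar material changed in both directions. CEP131, a protein of the centriolar satellites, was at 16.8 and 14.1 TPM with barasertib and 11.5 and 11.6 TPM with DMSO. Its treated libraries differed from each other more than its controls did but lay above them, and the log2 change was 0.38 ± 0.10 (limma adjusted p = 0.0363). The CEP131 change was 0.27 and 0.28 under the other scalings (adjusted p = 0.108 and 0.107), and CEP131 was no longer called when barasertib replicate 1 (limma adjusted p = 0.126) or either DMSO library (0.0933 and 0.0853) was left out. CEP70, which binds gamma-tubulin and helps to organise microtubules, was at 24.1 and 24.8 TPM with barasertib and 28.7 and 28.6 TPM with DMSO. The groups of CEP70 were well separated, a fall by 0.22 ± 0.065 on the log2 scale (limma adjusted p = 0.0481), called under all 3 scalings but not with any single library left out (adjusted p of 0.0953 to 0.168).

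The linker gene CEP250 (C-NAP1), whose protein tethers the centriole pairs, was at 8.17 and 6.44 TPM with barasertib and 7.86 and 5.72 TPM with DMSO. Replicate 2 was the lower library in both groups, and the groups overlapped. CEP68, a further linker protein, was at 21.4 and 19.9 TPM with barasertib and 18.0 and 18.1 TPM with DMSO, higher without overlap but not called (log2 change 0.19, limma adjusted p = 0.113). CEP72, a satellite protein, was at 11.2 and 13.1 TPM with barasertib and 10.5 and 12.9 TPM with DMSO, and overlapped.

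Among members whose function is less described, CEP15 rose and the others were not called. CEP15 was at 6.80 and 7.31 TPM with barasertib and 4.54 and 3.81 TPM with DMSO, low but apart. Its log2 change was 0.64 ± 0.12 (limma adjusted p = 0.0129), and the ratio of means, 1.69, was the highest of the members. CEP15 (gene ID 57415) spans chromosome 3 from 62304648 to 62321888 on the plus strand (hg19), and its call held under all 3 scalings but ended when either barasertib library was left out (limma adjusted p = 0.0577 and 0.0736). CEP85L, the paralogue of CEP85, was at 5.73 and 5.65 TPM with barasertib and 5.29 and 4.81 TPM with DMSO (log2 change 0.15, limma adjusted p = 0.352). CEP95 was at 53.2 and 53.7 TPM with barasertib and 53.6 and 53.8 TPM with DMSO, with an interval of -0.14 to 0.12, and CEP112 at 3.94 and 4.52 TPM with barasertib and 4.49 and 4.42 TPM with DMSO.

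**Figure D3:**
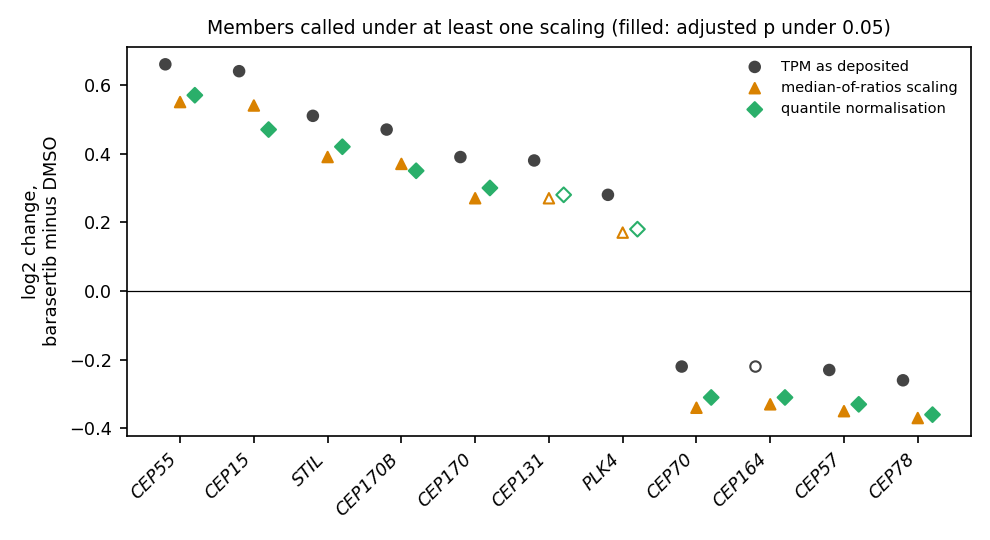
log2 change, barasertib minus DMSO, of 11 members called under at least one scaling: deposited TPM (circles), median-of-ratios scaling (triangles) and quantile normalisation (diamonds), filled where the limma adjusted p is under 0.05. CEP55, CEP15, STIL, CEP170B and CEP170 are filled under all 3 scalings above 0, CEP70, CEP57 and CEP78 below 0, and CEP131 and PLK4 only in TPM.

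Across the members, the separation of the groups can be read directly from the libraries. In 17 members (42.5%) both treated libraries exceeded both controls, and in 5 members (12.5%) both were below, against 49.1% and 19.7% of all tested genes. In 20 members the gap between replicates of a group was larger than the difference between the groups, on unrounded log2(TPM + 1). The sign of the log2 change differed between TPM and another scaling in 13 members, all of them uncalled in TPM. CEP55, STIL and CEP170 were the 3 members called in the same direction in all alternatives.

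For other genes of the centrosome the shares called were below those of all tested genes. In a list of 80 tested centrosome genes beside the members 15 (18.8%) rose and 2 (2.5%) fell, against 22.0% and 7.44% of all tested genes, with a median log2 change of 0.12, against 0.11. Under all 3 scalings 5 of the 80 rose and 2 fell, where 10.7% and 7.05% of all tested genes did. With median-of-ratios scaling 6 rose and 3 fell, where 1668 and 1721 of the 13938 tested genes did. With quantile normalisation 5 rose and 3 fell, where 1649 and 1590 of all tested genes did. The largest rises in TPM were those of TPX2, which activates Aurora A on the spindle (128 and 127 TPM with barasertib, 79.3 and 75.8 TPM with DMSO, log2 change 0.71, limma adjusted p = 0.000702), and PLK2, a kinase of the PLK4 family (4.63 and 4.12 TPM, against 2.50 and 2.30 TPM with DMSO, 0.66, adjusted p = 0.016). PLK2 was low, and it was not called with quantile normalisation (limma adjusted p = 0.0511). The mitotic kinase PLK1 rose by 0.61 on the log2 scale, the spindle protein TACC3 by 0.60 and the kinase NEK2, which dissolves the centrosome linker, by 0.58. The 2 that fell were HAUS4, a subunit of the augmin complex (37.1 and 36.6 TPM, against 49.3 and 46.4 TPM with DMSO, log2 change -0.37, limma adjusted p = 0.00914), and AKAP9, a scaffold of the centrosome and Golgi (7.39 and 9.07 TPM, against 11.5 and 10.9 TPM with DMSO, -0.41, adjusted p = 0.0448). PLK1 and AURKA are also in the G2 and mitosis list.

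Of 45 cilium genes 3 (6.67%) rose and 3 (6.67%) fell, against 22.0% and 7.44% of all tested genes, and the median log2 change was -0.05, against 0.11. BBS4, a subunit of the BBSome, was at 26.0 and 27.6 TPM with barasertib and 17.8 and 18.7 TPM with DMSO (log2 change 0.53, limma adjusted p = 0.00463), and KIF7, a kinesin of the Hedgehog pathway, and TCTN1, of the transition zone, rose by 0.42 and 0.39 on the log2 scale. DYNC2H1, the heavy chain of the intraflagellar dynein, was at 3.07 and 3.10 TPM with barasertib and 4.94 and 4.59 TPM with DMSO (-0.49, limma adjusted p = 0.0287). WDR19, an intraflagellar transport protein, and BBS2, a BBSome subunit, fell by 0.48 and 0.32 on the log2 scale. Under all 3 scalings the 3 falls and 1 rise, that of BBS4, were called, where 7.05% of all tested genes fell and 10.7% rose.

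Genes that mark the stage of the cell cycle differed between the same libraries. Of 26 genes of G2 and mitosis 25 (96.2%) rose and 0 fell (limma, adjusted p under 0.05), also under all 3 scalings, with a median log2 change of 0.56 and summed levels of 2648 and 2636 TPM with barasertib and 1711 and 1754 TPM with DMSO. Of 22 genes of the G1 to S transition 12 (54.5%) rose and 1 (4.55%) fell, CDT1, named after its values were seen. Under all 3 scalings 8 of the 22 rose and 1 fell. Of all tested genes 22.0% rose and 7.44% fell, and 10.7% and 7.05% did so under all 3 scalings. CEP55, at 0.66, and STIL, at 0.51, lay in the range of the G2 and mitosis genes, 0.32 to 0.93. So did CEP15 at 0.64, CEP170B at 0.47, CEP170 at 0.39 and CEP131 at 0.38. The other duplication genes PLK4 and SASS6, at 0.28 and 0.15, lay below that range. All of these members lay within the range of the G1 to S genes, -0.25 to 0.82. The part of these cell cycle genes in the changes of the members was not tested.

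**Figure D4:**
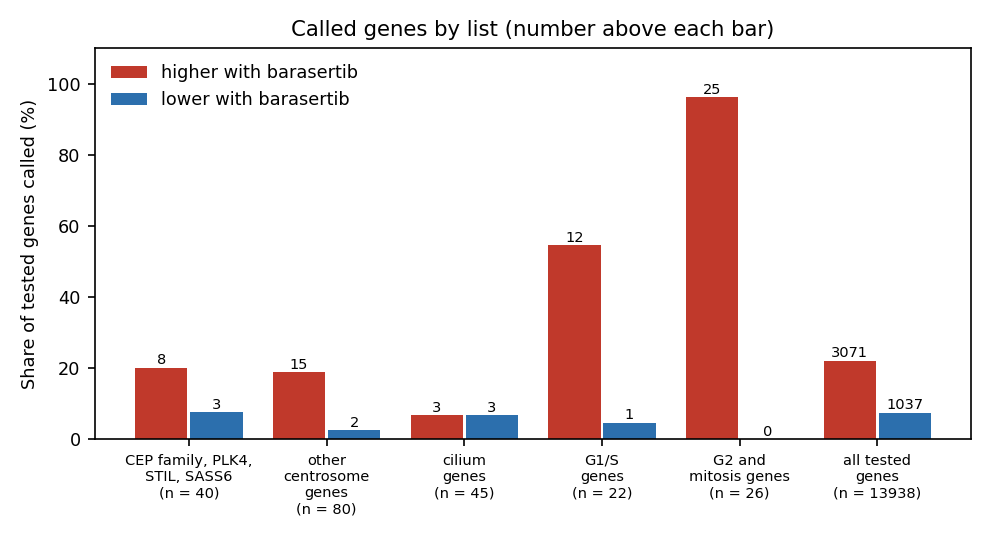
Share of tested genes called higher (red) and lower (blue) with barasertib (limma adjusted p under 0.05), for the members, 4 other lists and all tested genes, with the number of genes above each bar. The bars of the members, 20.0% and 7.5%, are close to those of all tested genes, 22.0% and 7.44%, and the G2 and mitosis bar reaches 96.2%.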

How the data were processed

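RNA of NCC-IT-A3 cells was measured in 4 libraries, 2 with barasertib and 2 with DMSO. The submitters' processing notes name HISAT2, StringTie and hg19, without versions, and libraries were made with a stranded mRNA kit, per the labels' protocols. The deposited files hold TPM, FPKM and coverage (a signal, the mean depth per base) per gene row, per the file headers. No counts are given, so read depth is unknown, and aligned bases were estimated as the highest ratio of deposited coverage to deposited FPKM. Deposited coverage of the members ran from 1.05 (CEP112) to 207 (CEP57).

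Rows were summed per gene ID, and symbols came from RefSeq (GRCh38.p14, names only), which matched 27559 of 27685 IDs. Genes averaging 1 TPM or more over the 4 libraries were tested with limma 3.58.1 (R 4.3.3) on log2(TPM + 1), group as the only term, mean-variance trend, two-sided, Benjamini-Hochberg over all 13938 genes, threshold 0.05 (2 residual and 4.09 prior degrees of freedom). The fit was tested on simulated data. Alternatives were no filter, 5 TPM, pseudocounts of 0.1 and 5, FPKM, median-of-ratios scaling over the tested genes, quantile normalisation, no trend, the replicate number as a block, and each library left out.

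All counts cover the 40 members, but 1 member is not reported by name here. The members, roles and lists were chosen with earlier results of these data known. Named in full were called members with a log2 change of at least 0.5, PLK4, STIL and SASS6, the called member with the largest change in each role and direction, and up to 5 called genes per direction of the centrosome and cilium lists; other members are given for completeness. Of 84 centrosome symbols 81 genes matched and 80 passed the filter. Python 3.11.15 was used for tables and figures.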

Additional observations from a re-analysis of the deposited data

How the results depend on the processing

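Of the alternatives computed for single members, called or not, 469 left the status as it was, 43 ended a call, and 2, both for CEP164, added one. The 469 include members that were never called. Among called members, CEP55, STIL and CEP170 kept the call in all 13 alternatives, and CEP15 in 11, CEP170B in 10 and CEP57 in 9. PLK4 kept it in 7, and CEP78, CEP70 and CEP131 in 6. The members that rose numbered 8, against 5 with median-of-ratios scaling and 5 with quantile normalisation, and 3 to 5 with 1 library left out, where a lone library is assumed to vary like the other group. Members that fell numbered 3, against 1 without the filter, 0 without the mean-variance trend and 0 to 1 with 1 library left out. With the replicate number as a block 1 member fell, CEP57, and 8 rose, but same-numbered libraries did not deviate together (r = 0.0229 over 13938 genes), and 2 numbers cannot show a pairing. Over all tested genes 3071 rose and 1037 fell, against 1668 and 1721 with median-of-ratios scaling, 1649 and 1590 with quantile normalisation, and 674 lower without the trend. Calls made up 74.8% rises in TPM, 49.2% with median-of-ratios scaling and 50.9% with quantile normalisation. With 1 library left out, 1966 to 2880 genes were called, 1365 to 2181 higher and 601 to 699 lower. The centrosome list had 15 rises and 2 falls, against 9 and 1 without the filter, 6 rises with median-of-ratios scaling, 5 rises with quantile normalisation, 8 and 1 without the trend, and 6 to 9 rises and 1 to 2 falls with 1 library left out. The median log2 change of the members, 0.05, was -0.06 with median-of-ratios scaling, -0.07 with quantile normalisation and 0.02 to 0.11 with 1 library left out. Their summed difference, 48.6 TPM, was 15.4 in FPKM units, -18.3 with median-of-ratios scaling, -14.7 with quantile normalisation, and 34.6 to 62.7 with 1 library left out. The cause was not tested. Without read counts the precision of low members such as CEP126 and CEP112 rests on 2 libraries per group.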

Other observations

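Of the 40 members 11 (27.5%) had a protein-coding neighbour starting within 1000 bases on the other strand in the hg19 positions of the files, against 16.0% of 12453 tested protein-coding genes, a difference that was not tested. None of the few neighbours of a called member was called, where 29.5% of all tested genes were. So few neighbours cannot show whether their share differs from that of all tested genes. SDCCAG8, itself a centrosome gene that starts 599 bases from CEP170, was at 12.0 and 10.6 TPM with barasertib and 10.6 and 11.3 TPM with DMSO (log2 change 0.04, limma adjusted p = 0.797). FAM76B, starting 670 bases from CEP57, was at 15.4 and 14.9 TPM with barasertib and 15.4 and 15.1 TPM with DMSO (-0.01, limma adjusted p = 0.964). The neighbour that was called, FAAP24, a Fanconi anemia core factor that starts 188 bases from the uncalled CEP89, was at 11.2 and 9.75 TPM with barasertib and 6.15 and 6.74 TPM with DMSO (0.62, limma adjusted p = 0.00993). Whether a neighbour and a member differ in their change was not tested, and these pairs were chosen after their values were seen.

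Over the 40 members, the log2 change had a Spearman correlation of -0.02 with mean level, 0.04 with the length and 0.17 with the GC content of the longest GENCODE transcript. These are descriptions across genes of the same libraries, which are not independent replicates. The GC content of the 8 members that rose ran from 36.1% to 66.2%, with CEP170B and CEP131 at the upper end. That of the 3 that fell ran from 38.3% to 39.2%, within the 35.2% to 56.6% of the 29 members not called. The medians were 41.75%, 38.5% and 41.1%, in that order.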
